A study of Mus musculus with 68 samples.

Results

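Meis1, Meis2, Meis3, Pbx2, Pbx3 and Pknox1 are 6 homeobox genes of the TALE class, named for a loop of extra amino acids in the homeodomain. They were taken by gene symbol from the deposited table of 21948 genes, and all 6 were present and passed the filter on low values that left 18428 genes for testing. RNA of each gene was followed in pharyngeal arch 1 (PA1), from which the jaws form, and in pharyngeal arch 2 (PA2), the next arch toward the tail, in mouse embryos of the cross CBA/Ca/J x C57BL/10. All embryos shared this background. Embryos were wildtype or carried the label Hoxa2-/-, meaning that both copies of Hoxa2, a homeobox gene used in PA2, are mutant. The stages were embryonic days E9.0 and E9.5, then E10.0 and E10.5, and the labels name no treatment. Of the 68 libraries, 34 were wildtype and 34 were labelled Hoxa2-/-, and the 16 groups of arch, label and stage held 3 to 5 libraries each. In all, 35 embryos were used, and both arches of 33 were sequenced. The sex of the embryos and the bases of Hoxa2 that the allele lacks are not given in the sources used here.

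TALE proteins bind DNA together with Hox proteins and raise the selectivity of Hox proteins for their sites. Meis and Pknox proteins bind to Pbx proteins, and through them or directly to Hox proteins, so that complexes of several homeodomains form on joined binding motifs. In the pharyngeal arches Hoxa2 gives PA2 its identity, and Meis and Pbx proteins are known as its partners there, while PA1 is formed by neural crest cells without Hox gene expression.

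Promoter sequence is shown for the 3 Meis genes, because these carried the arch differences described below. RefSeq promoter entries on the build GRCm38.p6 matched 4 of the 6 genes, namely Meis1, Meis2, Meis3 and Pbx2. The Pbx2 entry, whose start matched no GENCODE M21 transcript, is not used. Of the 250 bases before each start, the longest stretch outside annotated exons is printed, 5′ to 3′ on the gene's strand, and capitals mark a CCAAT box. The stretches lie at chr11:19018986-19019219 (Meis1, minus strand), chr2:116064722-116064801 (Meis2, minus strand) and chr7:16175185-16175274 (Meis3, plus strand).
Meis1: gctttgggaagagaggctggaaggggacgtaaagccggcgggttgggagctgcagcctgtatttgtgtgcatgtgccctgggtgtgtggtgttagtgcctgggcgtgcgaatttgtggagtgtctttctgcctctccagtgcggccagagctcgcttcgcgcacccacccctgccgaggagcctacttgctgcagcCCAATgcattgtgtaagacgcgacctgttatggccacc
Meis2: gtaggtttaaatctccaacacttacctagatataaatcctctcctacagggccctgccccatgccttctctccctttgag
Meis3: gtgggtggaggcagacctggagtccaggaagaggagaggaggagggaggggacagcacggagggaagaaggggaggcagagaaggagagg
The Meis1 stretch runs from base 250 to base 17 before the start and holds a CCAAT box at bases 54 to 50. The Meis2 stretch covers bases 182 to 103 before the start, and the Meis3 stretch bases 210 to 121. Both lie between annotated exons and inside the gene as GENCODE M21 places it, downstream of its outermost annotated start. The Meis1 stretch lies outside its gene. Motifs were searched on both strands of the 3 whole windows of 250 bases. The Meis and Pknox motif TGACAG was in none of the 3 Meis windows, while it was in 15.9% of 32851 mouse promoter windows of the same length. A joined Pbx and Hox motif, TGATTGAT, was likewise in none of the 3 and in 0.67% of all windows. The GC box GGGCGG was in none of the 3 either, and in 32.7% of all windows. A CCAAT box was also in the Meis2 window, on the reverse strand and outside the printed stretch, and 33.8% of all windows held one. GC content of the windows was 59.6% for Meis1, 47.6% for Meis2 and 63.6% for Meis3, against a median of 52.4% over all promoters, and CpG pairs numbered 13, 7 and 12, against a median of 6.

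On GRCm38, the build that the submitters' processing notes call mm10, GENCODE M21 places Meis1 (ENSMUSG00000020160) at chr11:18879817-19018985 on the minus strand and Meis2 (ENSMUSG00000027210) at chr2:115863064-116065839 on the minus strand. Meis3 (ENSMUSG00000041420) lies at chr7:16175090-16186504 on the plus strand. Pbx2 (ENSMUSG00000034673) lies at chr17:34591266-34597400 and Pknox1 (ENSMUSG00000006705) at chr17:31564734-31607693, both on the plus strand. Pbx3 (ENSMUSG00000038718) lies at chr2:34171457-34373142 on the minus strand. The values are totals over a gene, so they do not separate transcripts. Whether strand was used in counting is not given in the sources used here, and reads in shared exon bases cannot be assigned. Meis1 shares 8.51% of its exon bases with the antisense gene Gm16140 and 9.77% with Gm37818 on its own strand, Pbx2 shares 6.24% with Gpsm3, and Pknox1 shares 2.24% with the antisense gene AC166172.4. Meis2, Meis3 and Pbx3 share none.

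Levels are in CPM, read counts that the authors scaled to library size, and the libraries held 8912251 to 20619153 reads. Hoxa2 RNA was not lower under the label Hoxa2-/-: in PA2 its wildtype mean was 22.3, 40.7, 47.5 and 58.3 CPM over the 4 stages, and it was 28.7, 60.7, 97.7 and 132 CPM under the label. The label groups were higher at E10.0 (log2 difference 1.02, adjusted p = 0.00011) and E10.5 (1.16, adjusted p = 6.9e-05, limma). The RNA level thus does not show the mutation that the label names, and a total per gene does not show which part of the gene was transcribed. In PA1 the group means of Hoxa2 were 0.107 to 0.519 CPM. Markers of arch mesenchyme summed to 317–1014 CPM in every library. Sums of other markers ran from 39.6 to 152 CPM for arch mesoderm (4 genes), 128 to 396 for endothelium (5), 256 to 1172 for epithelium (5), 28.0 to 196 for neurons (5), 0.907 to 722 for heart muscle (5), 407 to 53786 for red cells (5) and 0.152 to 217 for yolk sac endoderm (5). No marker was at 0 in all libraries. In 4 PA2 libraries red cell or yolk sac markers stood apart: wildtype E9.0 replicate 2 and E10.0 replicate 3, and Hoxa2-/- label E9.0 replicate 3 and E10.0 replicate 4. In addition, 19 genes split 24 libraries, all wildtype ones except those of E10.0, from the other 44 without overlap, for example Ski with 26.3–108 CPM against 9.28–22.8 CPM, and none of the 6 TALE genes was among them. Label and this division coincide except at E10.0 and cannot be told apart there. At E10.0 both labels lie on the same side, and PA1 and PA2 of 1 label and stage always do. In bulk tissue, fewer cells of a type and less RNA per cell cannot be told apart.

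Per kilobase of exon, the scale on which genes can be compared, Pbx3 had the highest mean level over the 68 libraries, 11.9 CPM per kb. It was followed by Meis3 with 10.9, Meis2 with 9.83, Meis1 with 9.58, Pbx2 with 7.77 and Pknox1 with 4.91 CPM per kb. This order differed between groups: in wildtype PA2 the mean per kb of Meis1 was above that of Pbx3 at all 4 stages, with 25.3 against 14.4 CPM per kb at E10.5. Meis1 had the widest range among the libraries, 27.5–273 CPM, and 294 to 5273 reads. Meis2 ran from 79.3 to 188 CPM, Meis3 from 18.6 to 77.1, Pbx2 from 8.87 to 43.1, Pbx3 from 38.8 to 99.3 and Pknox1 from 19.8 to 50.7 CPM. The smallest read count behind any of these values was 116, for Pbx2.

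**Figure D1:**
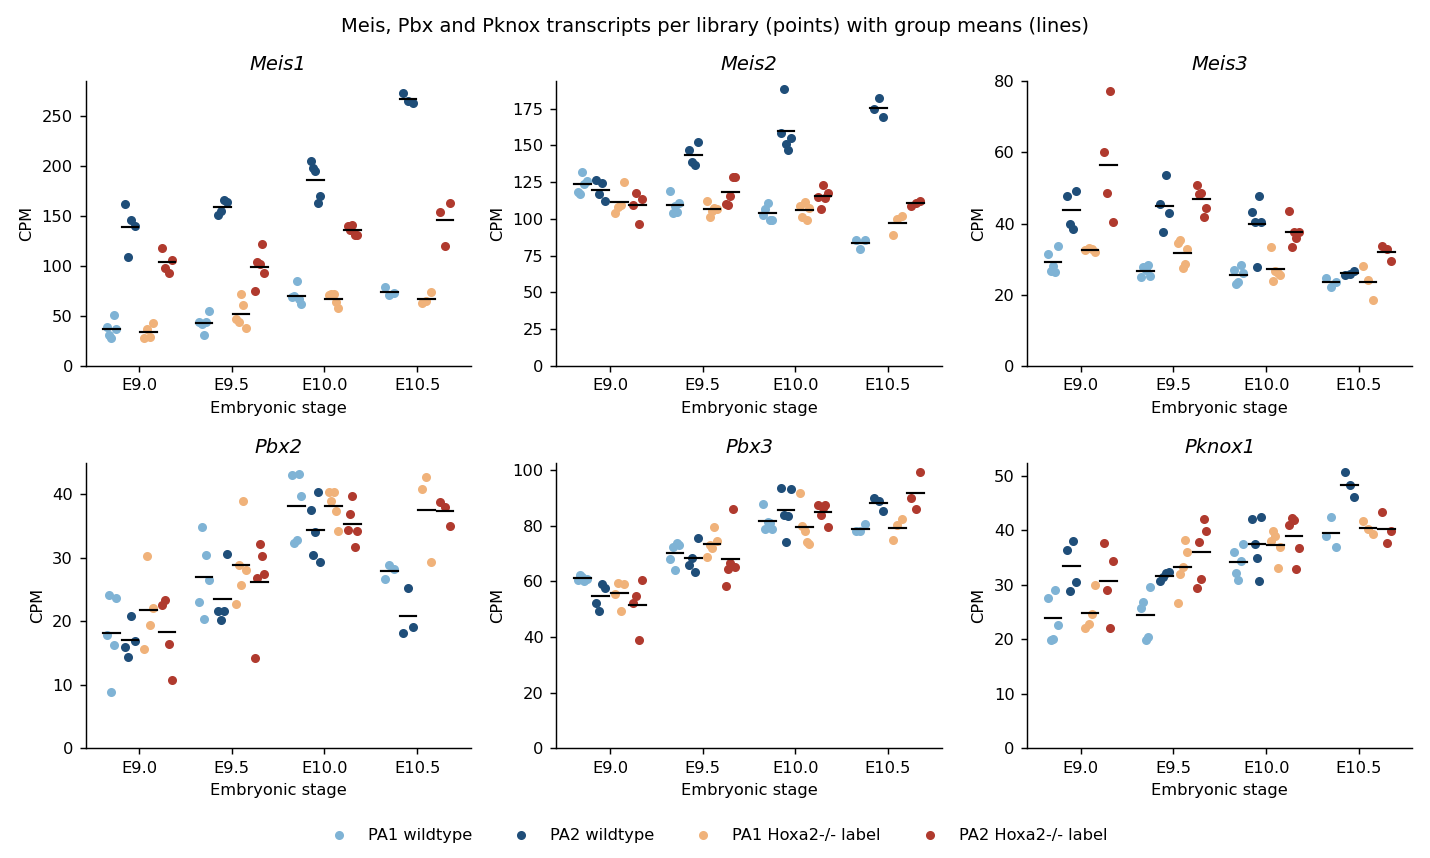
RNA level of each TALE gene in CPM (vertical axis) by embryonic stage (horizontal axis). Each point is 1 library, marked by arch and label, and short horizontal lines mark group means. Meis1 PA2 libraries lie above PA1 libraries at every stage within each label, and Meis2 in wildtype PA2 reaches 175 CPM at E10.5 while wildtype PA1 falls to 83.7 CPM.

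The first question was how the TALE genes differed between the arches in wildtype. Meis1 RNA was 2.65 to 3.77 times as high in PA2 as in PA1, Meis2 moved from no detectable difference at E9.0 to about 2 times higher in PA2 at E10.5, and Meis3 was higher in PA2 at the first 3 stages. Pknox1 was higher in PA2 at E9.0 and E9.5, and for Pbx2 and Pbx3 no arch difference passed the test. A gene was called where its adjusted p was under 0.05. At E9.0, 3 of the 6 genes were called higher in PA2, where 10.2% of all tested genes were. The counts were 4 of 6 at E9.5 (all genes 12.7%), 3 of 6 at E10.0 (4.51%) and 2 of 6 at E10.5 (0.868%). The median log2 difference of the 6 genes was 0.23, 0.38, 0.37 and 0.22 at the 4 stages, and that of all tested genes lay between -0.02 and 0.01.

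Meis1, whose protein joins Hox and Pbx proteins on DNA, gave 38.6, 30.6, 27.5, 51.0 and 36.9 CPM in the 5 wildtype PA1 libraries at E9.0, and 162, 109, 146 and 140.0 CPM in the 4 PA2 libraries. At E10.5 the PA1 libraries gave 79.0, 70.5 and 72.9 CPM and the PA2 libraries 273, 265 and 263 CPM. The 2 arches did not overlap at any stage. From E9.0 on, stage by stage, the log2 difference was 1.91 ± 0.14 (SE), 1.89 ± 0.14, 1.39 ± 0.13 and 1.83 ± 0.17, with limma adjusted p-values from 7.1e-16 to 7.2e-12. As ratios of means these were 3.77, 3.70, 2.65 and 3.60. Within single embryos, Meis1 was higher in PA2 in 33 of 33, with a PA2 to PA1 ratio of 2.30 to 5.43 in the 16 wildtype embryos.

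Meis2, the close paralogue of Meis1, gave 118, 117, 132, 124 and 126 CPM in wildtype PA1 at E9.0 and 126, 117, 124 and 112 CPM in PA2. These overlapped, and the log2 difference of -0.04 ± 0.06 did not pass the test (adjusted p = 0.70, limma). The 95% interval of that difference was -0.17 to 0.08. At E10.5 PA1 gave 85.8, 79.3 and 85.9 CPM and PA2 gave 175, 182 and 169 CPM, with every PA2 library above every PA1 library. At E9.5 the log2 difference was 0.39 ± 0.06 (adjusted p = 6e-06), and over the following stages it was 0.62 ± 0.06 (4.4e-12) and 1.06 ± 0.08 (2.1e-16, limma), and the arches did not overlap at these 3 stages. The change of the arch difference from E9.0 to E10.5 was 1.10 ± 0.10 (adjusted p = 3.3e-12, limma). It was the only one of the 6 genes called for such a change, where 1.13% of all genes were called toward PA2. Inside single wildtype embryos the median PA2 to PA1 ratio of Meis2 was 1.00 at E9.0, then 1.30 and 1.54, and 2.04 at E10.5. Both arches contributed: from E9.0 to E10.5 Meis2 fell by 0.55 on the log2 scale in PA1 and rose by 0.55 in PA2.

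Meis3, the third Meis gene, gave 31.5, 26.7, 28.1, 26.5 and 33.6 CPM in wildtype PA1 at E9.0 and 47.7, 39.8, 38.3 and 49.2 CPM in PA2. Outside E10.0 the arches did not overlap. At E10.0, 1 PA2 library overlapped PA1, replicate 3 with 27.7 CPM, which is 1 of the 3 libraries that stood apart in yolk sac markers. Meis3 differed by 0.56 ± 0.12 on the log2 scale at E9.0 (adjusted p = 0.00049), by 0.72 ± 0.12 a stage later (1.4e-05) and by 0.60 ± 0.11 at E10.0 (0.00015, limma). At E10.5 it was 0.14 ± 0.15 and did not pass (adjusted p = 1), with 24.7, 22.1 and 23.5 CPM in PA1 and 25.7, 25.7 and 26.6 CPM in PA2. The change of the Meis3 arch difference from E9.0 to E10.5 was -0.42 and did not pass either (adjusted p = 0.27).

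Pknox1, which encodes a protein that binds Pbx as Meis does, gave 25.6, 26.7, 19.8, 20.4 and 29.5 CPM in wildtype PA1 at E9.5 and 30.7, 31.4, 32.2 and 32.3 CPM in PA2, without overlap. At E9.0 the arches overlapped and the log2 difference was 0.48 ± 0.12 (adjusted p = 0.0033), and it was 0.38 ± 0.12 at E9.5 (0.017, limma). The E9.5 call was lost without PA1 replicate 3 (adjusted p = 0.076), without PA1 replicate 4 (0.057) and in a fit of the compared groups alone (0.052). At E10.0 and E10.5 the differences of 0.13 and 0.29 did not pass. In wildtype the Pbx2 differences were between -0.42 and -0.02 and the Pbx3 differences between -0.16 and 0.16, and none passed. The wildtype arches did not overlap for Pbx3 at E9.0 (49.5–59.0 CPM in PA2, 60.1–62.2 CPM in PA1). At E10.5 Pbx3 did not overlap either (85.3–90.1 CPM in PA2, 78.1–80.5 CPM in PA1). The same held at E10.5 for Pbx2 (18.2–25.2 CPM in PA2, 26.7–28.8 CPM in PA1) and Pknox1 (46.1–50.7 CPM in PA2, 36.9–42.5 CPM in PA1). In wildtype at E10.5 all 6 genes were without overlap, and 2 were called. With 3 libraries on each side, the smallest two-sided p of an exact permutation test is 0.1. The share of all genes without overlap was not computed. The PA2 to PA1 ratio within the 33 embryos was above 1 in 8 for Pbx2, 17 for Pbx3, 27 for Pknox1, 28 for Meis2 and 33 for Meis3. For Pbx3 this varied with stage. In wildtype its ratio was above 1 in 0 of 4, 1 of 4, 4 of 5 and 3 of 3 embryos from E9.0 to E10.5. Under the label the numbers were 1 of 4, 1 of 5, 4 of 5 and 3 of 3.

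Marker sums also differed between the arches. The 5 neuron markers in the table summed to 31.0–52.2 CPM in wildtype PA1 and 65.2–196 CPM in wildtype PA2, and the 6 arch mesenchyme markers to 525–1014 CPM in PA1 and 318–558 CPM in PA2. Heart muscle markers reached 681 CPM in wildtype PA2 at E9.0 and had a median of 2.59 CPM there at E10.5. Among the wildtype stages, the median neuron sum in PA2 was highest at E9.0 (155 CPM) and lowest at E10.5 (85.0 CPM). In wildtype PA2 the means of Meis1, Meis2, Pbx3 and Pknox1 were highest at E10.5 and that of Pbx2 at E10.0. The Meis3 mean there was lowest at E10.5 (26.0 CPM, against 43.8 CPM at E9.0). The part of these cell types in the arch differences was not tested.

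**Figure D2:**
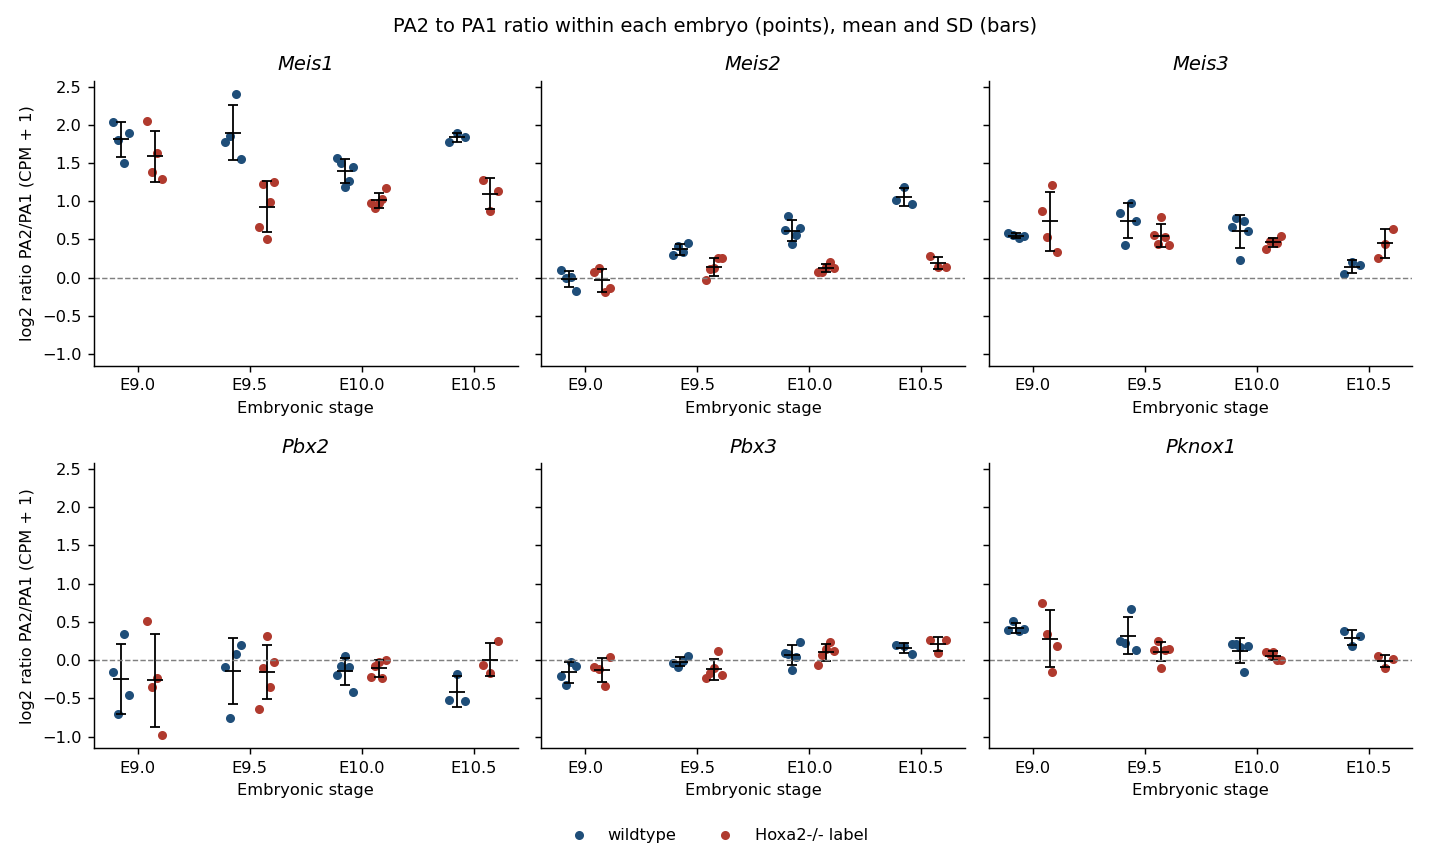
Log2 ratio of PA2 to PA1 within each of the 33 embryos that gave both arches (vertical axis), by stage and label. Points are embryos, bars are the mean ± SD, and 0 is an equal level. All Meis1 and Meis3 points lie above 0, and the wildtype Meis2 points climb from a median ratio of 1.00 at E9.0 to 2.04 at E10.5.

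With the label Hoxa2-/-, Meis1 was called higher in PA2 at all 4 stages, Meis2 passed the test at no stage, and Meis3 was again higher at the first 3 stages. At each of the first 3 stages 2 of the 6 genes, Meis1 and Meis3, were called higher in PA2, and 12.1%, 6.12% and 3.13% of all genes were. At E10.5 only Meis1 was called (all genes 0.982%). Meis1 differences were 1.59 ± 0.15, 0.93 ± 0.13, 1.01 ± 0.13 and 1.10 ± 0.17 from E9.0 to E10.5 (adjusted p at most 1.8e-05, limma), and the arches did not overlap. Meis2 differences were -0.03, 0.15, 0.12 and 0.19, each with an adjusted p of 0.11 or more. At E10.5 the Meis2 values were 89.1, 99.9 and 102 CPM in PA1 and 109, 111 and 113 CPM in PA2, close together though without overlap. The 95% interval of that E10.5 difference was 0.04 to 0.35. In single embryos with the label, the PA2 to PA1 ratio of Meis2 at E10.5 was 1.11 to 1.22, and in wildtype it was 1.97 to 2.30. Meis3 differences were 0.74, 0.55 and 0.46 at the stages called. At E10.5 the Meis3 difference of 0.45 did not pass (adjusted p = 0.15), and with the embryo as a block it did (0.028). Pknox1 at E9.0 differed by 0.28 without passing (adjusted p = 0.10), and passed with the embryo as a block (0.019) and without the libraries that stood apart (0.43, adjusted p = 0.011). The neuron markers summed to 28.0–48.9 CPM in PA1 and 62.4–189 CPM in PA2 under this label.

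The next question was whether the TALE genes differed by label within PA2, where Hoxa2 is expressed. Under the label Hoxa2-/- Meis2 was lower from E9.5 on, Meis1 was lower at E9.5 and E10.5 but did not pass at E10.0, and Pbx2 was higher at E10.5. At E9.0 none of the 6 genes was called, against 14.0% of all genes, a share that was 0.0814% in the fit of the compared groups alone. Of the 6 genes, 3 had an unadjusted p under 0.05, and edgeR called 2, Meis1 and Meis3. Called lower were 2 of 6 at E9.5 (all genes 2.75%) and 1 of 6 at E10.0 (0.0651%), and at E10.5, 3 of 6 were called, 2 lower and 1 higher, where 10.3% of all genes were called in either direction.

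In PA2 at E10.5 Meis2 gave 175, 182 and 169 CPM in wildtype and 109, 111 and 113 CPM under the label, so that the groups stood far apart. At E10.0 the wildtype values were 158, 188, 151, 147 and 155 CPM and the label values 115, 107, 123, 114 and 117 CPM, again without overlap. Over the 4 stages in turn, the log2 differences of Meis2 were -0.14 (adjusted p = 0.17), -0.28 ± 0.06 (0.0039), -0.47 ± 0.06 (6.3e-07) and -0.66 ± 0.08 (1.2e-08, limma). The E10.0 comparison, in which both labels lie on the same side of the division of libraries, thus passed on its own. In a fit of the compared groups alone the E9.5 difference did not pass (adjusted p = 0.060).

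Meis1 in PA2 at E10.5 gave 273, 265 and 263 CPM in wildtype and 154, 120.3 and 163 CPM under the label. At E9.5 the wildtype libraries gave 151, 155, 165 and 164 CPM, above all 5 label libraries with 75.2, 104, 102, 121 and 92.8 CPM. Those of Meis1 were -0.41 at E9.0 (adjusted p = 0.055), then -0.69 ± 0.14 (0.0018), -0.45 ± 0.13 (0.38) and, at the last stage, -0.88 ± 0.17 (0.00041, limma). At E10.0, the stage within 1 side of the division, the groups did not overlap (163–205 against 131–141 CPM), yet the difference passed only in the fit of the compared groups alone (adjusted p = 0.043). At that stage the adjustment left 15 genes called in the whole table.

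Pbx2, one of the Pbx partners, gave 18.2, 25.2 and 19.1 CPM in wildtype PA2 at E10.5 and 38.8, 38.0 and 35.1 CPM under the label, without overlap. The log2 difference was 0.82 ± 0.24 (adjusted p = 0.020, limma). At E10.0, within 1 side of the division, the PA2 difference of Pbx2 was 0.05 and did not pass (adjusted p = 0.98). The E10.5 call was lost without wildtype replicate 1 (adjusted p = 0.094) or 3 (0.071) and without label replicate 1 (0.062) or 2 (0.063). Pbx3 differed by -0.10 to 0.06 over the 4 stages. Meis3 at E10.5 gave 25.7, 25.7 and 26.6 CPM against 33.7, 33.0 and 29.6 CPM, which did not overlap and did not pass (0.29, adjusted p = 0.22). Pknox1 at E10.5 gave 50.7, 48.4 and 46.1 CPM in wildtype and 43.2, 37.6 and 39.8 CPM under the label, likewise without overlap and without passing (-0.26, adjusted p = 0.28).

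At E10.5 the marker sums of PA2 differed too: arch mesenchyme summed to 473–527 CPM in wildtype and 590–649 CPM under the label, and endothelium to 141–152 and 170–209 CPM. The neuron sums overlapped (75.1–86.3 and 64.7–78.2 CPM), as did those of mesoderm, epithelium, heart muscle, red cells and yolk sac. The part of these cell types in the label differences was not tested.

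Within PA1 1 of the 6 genes differed by label, at a stage where label and division cannot be told apart. Pknox1 at E9.5 was higher under the label, with 26.7, 31.9, 33.3, 38.2 and 36.1 CPM against 25.6, 26.7, 19.8, 20.4 and 29.5 CPM in wildtype (0.44 ± 0.11, adjusted p = 0.0044, limma), and the groups overlapped. It was the 1 of 6 called at that stage, where 23.6% of all genes were called, and the fit of the compared groups alone did not call it (adjusted p = 0.060). At the other 3 stages limma called none of the 6, with 1 (E9.0), 0 (E10.0) and 1 (E10.5) of them at an unadjusted p under 0.05 and 0 called by edgeR at each. Of all genes 2.08%, 0.0% and 3.05% were called there; at E10.0 that is 0 genes, with 424 at an unadjusted p under 0.05 and 0 called by edgeR. Meis1 at E9.5 was 0.27 higher under the label without passing (adjusted p = 0.14), and passed without wildtype replicate 5 (0.36, adjusted p = 0.045). Meis2 at E10.5 gave 85.8, 79.3 and 85.9 CPM in wildtype PA1 and 89.1, 99.9 and 102 CPM under the label, a difference of 0.21 that did not pass (adjusted p = 0.13). Pbx2 at E10.5 gave 26.7, 28.8 and 28.3 CPM in wildtype PA1 and 40.7, 42.7 and 29.3 CPM under the label, which did not overlap and did not pass (0.40, adjusted p = 0.47).

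Whether the label acted differently in the arches was tested as the label difference in PA2 minus that in PA1, which equals the arch difference under the label minus that in wildtype and uses the same libraries. Because each arch pair comes from 1 side of the division, this is a difference of values taken within sides. Only for E10.0 do the wildtype and label pairs share a side. Elsewhere, including the E10.5 values, a difference between sides that varied with arch cannot be told apart from label. Such a difference was not tested. Meis2 differed by -0.49 ± 0.08 at E10.0 (adjusted p = 0.0013) and by -0.87 ± 0.11 at E10.5 (1e-06, limma). It was the 1 of 6 genes called lower at each of these stages, where 0.0163% and 0.0271% of all genes were called lower. The Meis2 value at E10.0 did not pass in the fit of the compared groups alone (adjusted p = 0.13). At E9.0 and E9.5 limma and edgeR called none of the 6 (all genes 0.0% and 0.0109% in limma), and 0 and 2 of the 6 had an unadjusted p under 0.05. Meis1 at E9.5 differed by -0.96 ± 0.20 (adjusted p = 0.054), and passed with the embryo as a block (-0.97, adjusted p = 0.0077). At the other stages Meis1 differed by -0.32, -0.38 and -0.74 without passing. Pbx2 at E10.5 differed by 0.42 ± 0.34 and did not pass (adjusted p = 1).

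A mean of this difference over the 4 stages was added after the values were seen. It combines the stage differences given above, so it is not independent of them, and it includes the stages where label and division coincide. It was -0.60 ± 0.11 for Meis1 (adjusted p = 0.0018) and -0.40 ± 0.05 for Meis2 (5.9e-08, limma), which made 2 of 6 genes called lower, against 0.0434% of all genes. For Pknox1 it was -0.21 ± 0.09 and did not pass (adjusted p = 1). The difference of Meis2 also grew with stage, by -0.88 ± 0.14 from E9.0 to E10.5 (adjusted p = 0.0011, limma). Of all genes 0.0109% were called for this change. Label and division coincide at both of its stages. For Meis1 that change was -0.42 ± 0.32 and did not pass (adjusted p = 1).

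**Figure D3:**
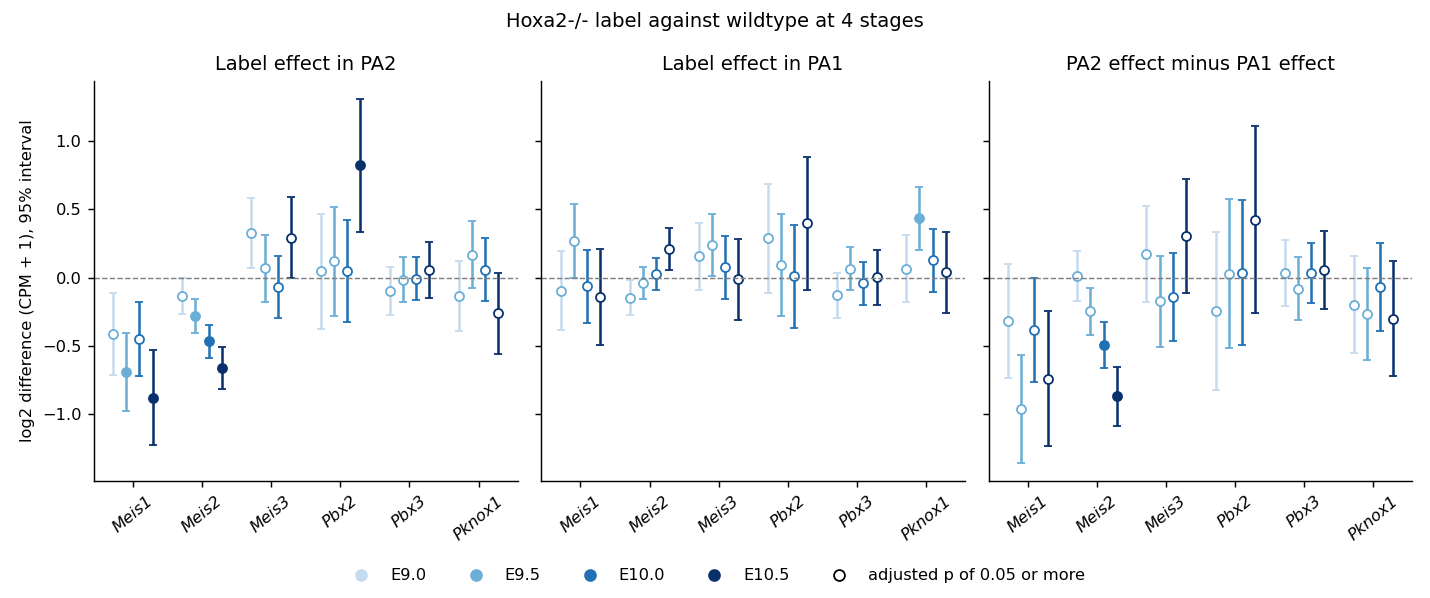
Log2 difference of the label Hoxa2-/- minus wildtype (vertical axis) for each TALE gene and stage, in PA2, in PA1, and as the PA2 difference minus the PA1 difference. Bars are 95% intervals from the limma fit, and filled points have an adjusted p under 0.05. The Meis2 points in PA2 move from -0.14 at E9.0 to -0.66 at E10.5, while no Meis2 point in PA1 is filled.

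The last question was how the genes changed from E9.0 to E10.5. Pbx3 and Pknox1 rose in both arches under both labels, Meis1 did as well, Pbx2 rose in 3 of the 4 arch and label groups, and Meis3 fell in 3. Meis2 fell in PA1, rose in wildtype PA2 and did not pass in PA2 under the label. In wildtype PA1 5 of 6 genes were called (all genes 42.5%), in wildtype PA2 5 (36.9%), in PA1 under the label 6 (31.2%) and in PA2 under the label 5 (30.9%). Changes with stage were thus common in the whole table.

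Pbx3, which binds DNA with Meis and Hox proteins, went from 60.1–62.2 CPM in the 5 wildtype PA1 libraries at E9.0 to 78.1, 78.2 and 80.5 CPM at E10.5. In wildtype PA2 it went from 52.1, 49.5, 59.0 and 57.7 CPM to 90.1, 88.8 and 85.3 CPM. The ranges did not overlap. The log2 change was 0.36 in wildtype PA1 (adjusted p = 0.00079), 0.68 in wildtype PA2 (4.4e-08), 0.50 in PA1 under the label (3.7e-05) and 0.84 in PA2 under the label (3.4e-10, limma). The larger change in PA2 was 0.32 for wildtype (adjusted p = 0.19) and 0.34 for the label (0.11) and did not pass, although the latter passed with the embryo as a block (adjusted p = 0.025). Under the label none of the 6 genes was called for a change of the arch difference by limma or edgeR, with 3 at an unadjusted p under 0.05 and 7.33% of all genes called.

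Pbx2 went from 17.9, 24.2, 8.87, 16.2 and 23.7 CPM in wildtype PA1 at E9.0 to 26.7, 28.8 and 28.3 CPM at E10.5 (0.67, adjusted p = 0.010), and the change was 0.45 without replicate 3 of E9.0 (adjusted p = 0.075). At E10.0 its wildtype PA1 level was 38.2 ± 5.35 CPM (SD, n = 5), but those libraries lie on the other side of the division, so stage and division cannot be told apart in that value. Under the label it rose by 0.78 in PA1 (adjusted p = 0.0062) and by 1.05 in PA2 (0.00024, limma), while in wildtype PA2 the change of 0.28 did not pass (adjusted p = 0.36). Pknox1 rose by 0.72, 0.53 and 0.69 in wildtype PA1, wildtype PA2 and PA1 under the label. In PA2 under the label it rose by 0.40 (adjusted p = 0.022), which was lost in the fit of the compared groups alone (0.20) and without the libraries that stood apart (0.26, adjusted p = 0.16).

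Meis1 rose by 1.02 in wildtype PA1, 0.95 in wildtype PA2 and 0.97 in PA1 under the label (adjusted p at most 4.6e-06, limma). In PA2 under the label it went from 118, 98.3, 92.6 and 106 CPM to 154, 120.3 and 163 CPM, without overlap (0.48, adjusted p = 0.019). That call was lost in the fit of the compared groups alone (adjusted p = 0.054), without the libraries that stood apart (0.057), and without replicate 3 of E9.0 or replicate 1 or 3 of E10.5. Meis2 in PA1 under the label fell by 0.20 (adjusted p = 0.025), a call lost without replicate 4 of E9.0 or replicate 1 of E10.5 and in the fit of the compared groups alone (adjusted p = 0.081), and in PA2 under the label it changed by 0.02 (adjusted p = 0.85). Meis3 fell by 0.72 in wildtype PA2, by 0.76 in PA2 under the label and by 0.47 in PA1 under the label, the last of which did not pass without replicate 3 of E10.5 (-0.32, adjusted p = 0.12). In wildtype PA1 it went from 26.5–33.6 CPM to 22.1–24.7 CPM (-0.30, adjusted p = 0.058). This Meis3 difference passed with median-of-ratios scaling (adjusted p = 0.049), in the fit of the compared groups alone (0.018), without the libraries that stood apart (0.021) and with edgeR (0.041). Over these stages the marker sums moved as well: in wildtype PA1 arch mesenchyme went from 532–564 to 759–944 CPM, arch mesoderm from 108–133 to 61.2–72.8 CPM and epithelium from 584–917 to 308–360 CPM. Their part in the stage changes was not tested.

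**Figure D4:**
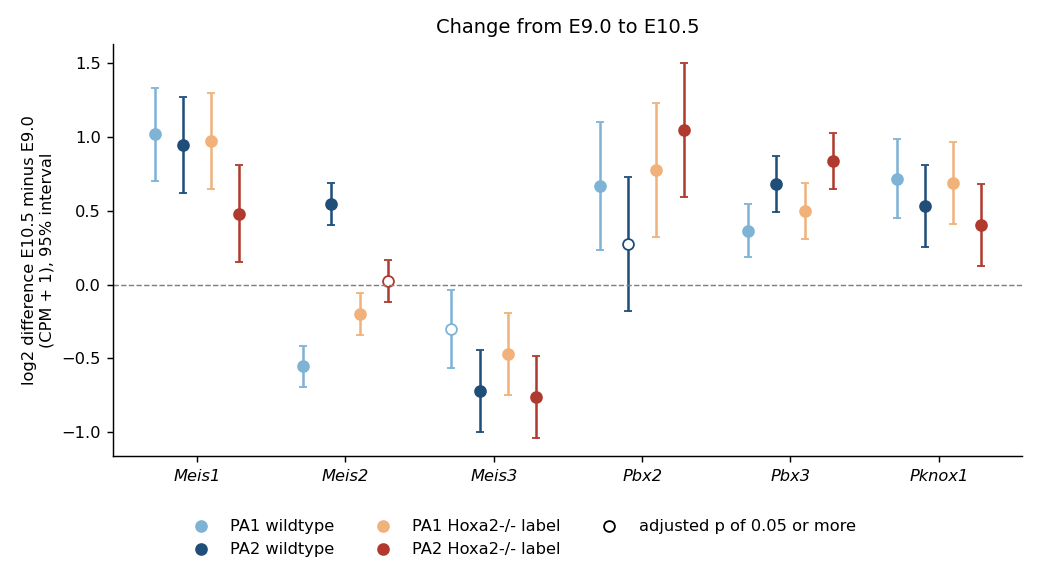
Log2 change from E9.0 to E10.5 (vertical axis) of each TALE gene in the 4 groups of arch and label. Bars are 95% intervals from the limma fit, and open points have an adjusted p of 0.05 or more. Meis2 lies at -0.55 in wildtype PA1 and at 0.55 in wildtype PA2, and all 4 Pbx3 points are filled and above 0.

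Ordered by group mean, Meis1 had all 8 PA2 groups above all 8 PA1 groups, from 267 CPM in wildtype PA2 at E10.5 to 34.3 CPM in PA1 under the label at E9.0. The lowest PA2 group, the label at E9.5, had 99.1 CPM and the highest PA1 group, wildtype at E10.5, had 74.1 CPM. Meis2 was highest in wildtype PA2 at E10.5 (175 CPM) and lowest in wildtype PA1 at E10.5 (83.7 CPM). Meis3 was highest in PA2 under the label at E9.0, with 60.1, 48.5, 77.1 and 40.5 CPM, and Pknox1 in wildtype PA2 at E10.5. Pbx2 was highest in PA1 under the label at E10.0 and Pbx3 in PA2 under the label at E10.5. Of the 15 pairs of neighbours in each order, the libraries were apart without overlap in 2 for Meis1, 2 for Meis2, 1 each for Meis3, Pbx3 and Pknox1, and 0 for Pbx2. Neighbours are close in mean because of the sorting, and overlap is not a test of a difference.

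Likeness was measured as Pearson's r of log2(CPM + 1) over the 16 group means, among 10511 genes. These means share libraries, depth and stage, and the values are a description. Nearest to Meis1 were Gramd3 (r = 0.94) and Nr3c1 (0.93), the glucocorticoid receptor gene. Meis2 had no neighbour as near: Errfi1, Thbd and Farp1 each reached 0.78. Meis3 was nearest to Id4 (0.98), Dab2 (0.97) and Neu1 (0.97), and Pbx2 to Dusp9 (0.95), Phlda3 (0.94) and Pank1 (0.94). Pbx3 was nearest to Hdgfl3 (0.98), Psrc1 (0.98) and Fbln5 (0.97), and Pknox1 to Epb41l3 (0.96), Ctps2 (0.95) and Tmx4 (0.95). Among the 6 genes themselves, Meis1 and Meis2 gave 0.62, Meis1 and Pknox1 0.72, Pbx2 and Pbx3 0.79, Pbx3 and Pknox1 0.70, and Meis3 and Pbx3 -0.53.

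Of 12 other TALE genes in the table, 11 passed the filter. In wildtype, 2, 3, 2 and 1 of the 11 were called higher in PA2 from E9.0 to E10.5. Of all tested genes, 10.2%, 12.7%, 4.51% and 0.868% were called higher at these stages. Mkx, Pknox2 and Tgif1 at E9.0 and Irx3 at E10.5 were called lower, where 1572 and 120 of all 18428 genes were. Irx2, of the Iroquois genes, was higher in PA2 at all 4 stages in wildtype (1.49, 1.36, 0.67 and 1.08). In PA2 at E10.5 Pknox2, the paralogue of Pknox1, was higher under the label (42.8 ± 4.25 CPM in wildtype against 80.1 ± 5.05, SD, n = 3 each; 0.89, adjusted p = 0.00033), and Irx2 was lower (-0.96, adjusted p = 0.0002, limma). At E9.5 Mkx was higher under the label in PA2 (0.45) and Pbx4 was lower in PA1 (-0.52). At E9.5 and E10.5 label and division cannot be told apart. At E10.0, within 1 side of the division, none of the 11 was called by label in PA2, where 0.0814% of all genes were. From E9.0 to E10.5 Irx3 fell in all 4 groups (by 1.21, 2.50, 1.57 and 2.20 on the log2 scale).

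Among Hox genes that act with TALE proteins, Hoxa2 was higher in wildtype PA2 than in PA1 at all 4 stages (4.39, 5.05, 5.38 and 5.33), and Hoxb2 was as well (2.23, 2.11, 2.07 and 1.72). Of 8 genes known as Hoxa2 targets or arch patterning genes, 2, 3, 3 and 3 were lower under the label in PA2 from E9.0 to E10.5, and 2 were higher at E10.5. Of all 18428 tested genes, 1371, 506, 12 and 710 were called lower at these stages, and 1194 were called higher at E10.5. Among the 8, the lower genes at E10.5 were Meox1 (-1.47), Vcam1 (-1.25) and Zfp503 (-0.92). The higher ones were Pitx1 (2.15), a homeobox gene of PA1, and Alx4 (1.05). In PA1 Zfp703 at E9.5 and Six2 at E10.5 were called lower under the label, and label and division cannot be told apart at these stages. This list includes genes picked with these data known, so their direction is not independent evidence.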

How the data were processed

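RNA was sequenced from 68 dissected arches. Per the labels' protocols, the SMART-seq v4 low-input kit and Nextera XT were used on polyadenylated RNA. The submitters' processing notes name bcl2fastq 2.18, TopHat2 2.1.1, R 3.3.2 and mm10; the counting program, annotation and strandedness are not given in the sources used here. The authors deposited a table of 21948 genes whose values are recorded as a signal, read counts scaled to library size: column totals ran from 926298 to 1051959, so they are not plain CPM as the plan had assumed, although they are called CPM here. With a tolerance of 0.01 reads, 100.0% of the values were whole reads (largest distance 9.2e-05), 8912251 to 20619153 per library. The labels describe no molecular identifiers for these amplified libraries. GENCODE M21 gave symbols for 21921 identifiers.

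Genes with at least 1 CPM in at least 3 libraries (18428) were fitted on log2(CPM + 1) with limma 3.58.1 (R 4.3.3). That scale understates changes of low genes. Each of 16 groups had its own mean, and all 68 libraries entered the fit. The prior variance followed a trend, tests were two-sided, and p-values had the Benjamini-Hochberg adjustment over all 18428 genes, with a threshold of 0.05. Values written with ± beside a log2 difference are standard errors. The code was tested on simulated data. Alternatives were pseudocounts of 0.25 and 5, no filter or 5 CPM in 3 libraries, median-of-ratios scaling, a fit of the compared groups alone, the embryo as a block, edgeR 4.0.16 on the recovered reads, each library left out in turn and, chosen after seeing the data, the libraries that stood apart left out. The mean of the label difference over stages and its change with stage were also added after seeing the data. The series text says that both arches came from a single embryo: 33 pairs of libraries from the same embryo had a median correlation of deviations from group means of 0.347, with 30 above 0.1, and 116 pairs from different embryos had -0.124. Chi-square per degree of freedom between replicates was 5.84 to 95.9, so none was a copy of another in its group. The series text calls replicates biological.

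All 6 genes are named in every comparison; of the other TALE, Hox partner and Hoxa2 target lists, genes that passed are named. The 3 genes most like each were ranked among genes of at least 5 CPM. Some results of these lists and of this ranking are not reported here. The members and lists were chosen with earlier results of these data known.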

Additional observations from a re-analysis of the deposited data

Results flagged for a closer look

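In the 12 groups of 4 or 5 libraries, each of the 6 genes was tested for a library far from the others, and 3 of these 72 tests found one. Chance alone marks about 1 in 20. Meis2 was 188 CPM in wildtype PA2 at E10.0 replicate 2, where the other 4 libraries gave 147–158 CPM. Pbx2 was 30.6 CPM in wildtype PA2 at E9.5 replicate 5, against 20.2–21.6 CPM in the others. Pbx3 was 87.8 CPM in wildtype PA1 at E10.0 replicate 1, against 78.7–81.3 CPM.

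The other results listed here differed between arches or stages by limma's test of the difference itself. For Meis2 the label difference in PA2 minus that in PA1 was -0.49 at E10.0 and -0.87 at E10.5, its mean over the 4 stages was -0.40, and it changed by -0.88 from E9.0 to E10.5. For Meis1 the mean over the 4 stages was -0.60. These means and the change with stage were added after the values were seen and are not independent of the single stages. Except for the E10.0 value, these label results include stages where label and division coincide. The arch difference of Meis2 in wildtype changed by 1.10 from E9.0 to E10.5.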

How the results depend on the processing

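Over the 6 genes, 168 single log2 differences were recomputed under 9 other settings (1512 values): 1487 kept their call, 9 lost it, 16 gained it and 0 reversed. Counts of calls changed in 3 comparisons by more than 1.5 times. With only the compared groups fitted, the label difference in PA1 gave 0 calls in place of 1, and the label difference in PA2 minus that in PA1 gave 1 in place of 2. With the embryo as a replicate block, the change of the arch difference gave 2 calls in place of 1, adding Pbx3 under the label (0.34, adjusted p = 0.025, limma). The other counts under the block were 12 for the arch difference in wildtype, 9 under the label (7 without the block, adding Pknox1 at E9.0 and Meis3 at E10.5), 6 and 1 for the label differences in PA2 and PA1, 3 for their difference (adding Meis1 at E9.5) and 21 for stage. With each of the 68 libraries left out in turn, calls ran from 11 to 12 for the arch difference in wildtype, 7 to 8 under the label, 5 to 7 for the label difference in PA2, 1 to 2 in PA1, 2 to 3 for the difference between arches, 19 to 22 for stage and 1 to 2 for the change of the arch difference. Without the 4 libraries that stood apart the counts were 12, 9, 6, 1, 2, 20 and 1, and edgeR on recovered reads gave 12, 7, 8, 1, 2, 22 and 1. Over all tested genes, counts of calls moved by more than 1.5 times in 13 of 28 comparisons with only the compared groups fitted (for the label in PA2 at E9.0, 15 genes in place of 2585), in 9 with the embryo block, in 5 with edgeR, in 5 without the libraries that stood apart, and in 4 each with a pseudocount of 0.25, a pseudocount of 5 or the filter of 5 CPM. No filter and median-of-ratios scaling (factors 0.97–1.01) moved none by that much. The causes were not tested. Intervals rest on 3 to 5 libraries per group.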
